A study of Rattus norvegicus with 4 samples.

Results

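The inhibin, activin and follistatin genes were examined in the testis of immature rats that had received an antibody against follicle-stimulating hormone (FSH). The set was fixed by name as 7 genes: the inhibin alpha subunit Inha, the beta subunits Inhba and Inhbb, the binding protein Fst, and the receptors Acvr1, Acvr2a and Acvr2b. Every probe set whose platform annotation gives exactly 1 symbol, and that symbol one of these, was taken, which gave 11 of the 8799 probe sets on the array. Inha, Fst, Acvr2a and Acvr2b each had 2 probe sets and the others had 1.

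Male Sprague Dawley rats, an outbred laboratory strain, received for 4 days either a sheep antibody against rat FSH or a control sheep immunoglobulin (IgG), and total RNA of the testis was hybridised to Affymetrix U34 rat arrays (set A). There were 4 arrays, 2 for control IgG and 2 for FSH antibody, grouped by their source names; the title of antibody replicate 2 instead names postnatal day 4. The series design puts the start of treatment at day 14, while the treatment protocol gives day 18 for the start and day 22 for collection; the source names and descriptions of all 4 samples give postnatal day 18. The protocols describe each RNA sample as a pool of about 20 organs, called ovaries there, although every source name gives the testis of 1 numbered rat. How many animals a sample stands for is thus not settled by the labels, and p-values measure only the spread between these RNA samples. With so few arrays their number limits the precision of every value.

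Inhibins and activins are dimers built from shared subunits. An alpha subunit joined to a beta subunit makes an inhibin, and a pair of beta subunits makes an activin. In the testis the alpha subunit comes largely from Sertoli cells, the somatic cells that carry the FSH receptor and nurse the germ cells, and FSH acts on them through cyclic AMP (cAMP). Inhibin B from the testis restrains FSH release by the pituitary. Activins signal through type II receptors (Acvr2a, Acvr2b) that recruit a type I receptor and lead to phosphorylation of SMAD2 and SMAD3, and follistatin binds activins and keeps them from their receptors.

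The sequences upstream of the 3 subunit genes are shown because FSH acts on Sertoli cells through cAMP and the alpha subunit gene differed most between treatments among the tested members. They come from a set of windows around RefSeq gene starts (build GRCr8). The set used here held 5 of the 7 genes and had no window for Fst and Acvr1. Each run is the 250 bases before the RefSeq gene start, written 5′ to 3′ on the gene's strand. Capitals mark exact matches, on either strand, to any of 7 short motifs: TGACG, the core of the cAMP response element; TGCGTCA, a variant of that element; AAGGTCA and AAGGCCA, bound by receptors of the NR5A1 type; AGATAA and TGATAA, bound by factors of the GATA family; and GGGCGG, the GC box.
Inha, chr9:84442859-84443108, + strand: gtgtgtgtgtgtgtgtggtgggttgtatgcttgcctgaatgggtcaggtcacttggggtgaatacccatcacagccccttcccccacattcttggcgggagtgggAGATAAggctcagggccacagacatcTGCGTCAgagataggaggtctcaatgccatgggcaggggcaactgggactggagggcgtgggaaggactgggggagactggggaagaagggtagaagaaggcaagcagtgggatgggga
Inhba, chr17:53804509-53804758, - strand: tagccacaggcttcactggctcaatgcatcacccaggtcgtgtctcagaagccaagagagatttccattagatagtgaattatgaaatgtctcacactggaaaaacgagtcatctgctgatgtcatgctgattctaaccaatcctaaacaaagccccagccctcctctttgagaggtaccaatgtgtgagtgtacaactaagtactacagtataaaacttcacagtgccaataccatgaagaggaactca
Inhbb, chr13:33089374-33089623, - strand: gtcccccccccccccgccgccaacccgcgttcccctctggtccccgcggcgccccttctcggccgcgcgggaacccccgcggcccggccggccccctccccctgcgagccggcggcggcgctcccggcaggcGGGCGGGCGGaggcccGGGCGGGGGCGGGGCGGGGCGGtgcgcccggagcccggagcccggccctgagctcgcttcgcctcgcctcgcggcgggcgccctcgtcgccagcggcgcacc

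The Inha sequence holds TGCGTCA starting at position -119 from the gene start, and the reverse complement of TGACG lies inside the same letters. All 33469 windows of the full 300 bases (250 before to 50 after the start) in the set used were searched. Of them, 1.90% hold TGCGTCA, while 21.2% hold TGACG. Inha also holds AGATAA at position -145, a motif found in 11.6% of windows. Inhba holds none of the 7 motifs in its window, which says only that these letters are not there. The Inhbb window is 84.3% G and C and holds 6 matches to GGGCGG, a motif present in 33.1% of windows, and no match to the other 6. For the receptors, Acvr2a has 1 TGACG match and Acvr2b has 3 matches to GGGCGG. These matches describe the letters only and are not evidence of binding in these samples.

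All values below are linear intensities as deposited, given for control replicates 1 and 2 and then antibody replicates 1 and 2. A change is a difference in log2(intensity + 16), antibody less control, with its standard error (SE); adding the constant shrinks differences at low intensity. Testing was limited to the 5244 probe sets whose mean log2 value reached the 40th percentile, which corresponds to an intensity of about 23.6, and a call is a Benjamini-Hochberg adjusted p at or under 0.05 by limma. A probe set can reach that intensity through the arrays of 1 group alone. Of the member probe sets, 6 from 4 genes (Inha, Inhba, Acvr1 and Acvr2b) were bright enough to be tested. The 5 others (Inhbb, both of Fst and both of Acvr2a) were dim, with mean intensities over the arrays of at most 18.8.

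Inha was the member with the largest difference on the tested probe sets. On its brighter probe set, M36453_at, the intensities were 1588.4 and 1224.2 in the controls and 804.3 and 682 after the antibody. Both antibody arrays lay below both control arrays, and the antibody mean was 52.8% of the control mean. The log2 change was −0.90 ± 0.19 (SE; 95% interval −1.32 to −0.48), with an unadjusted p of 8.26e-04 and an adjusted p of 0.122 by limma. It ranked 35 of the 5244 tested probe sets by p, and 26 among those with a lower antibody mean, and it was not called. The limma p draws on the variance of other probe sets. Without that moderation the unadjusted p of M36453_at was 0.0547 by an ordinary t-test on the same fit. In bulk RNA of this kind, fewer cells of a type and less RNA per cell cannot be told apart.

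The other Inha probe set, M32754cds_s_at, gave intensities of 544.2 and 927.4 in the controls and 501.2 and 502.7 after the antibody. The antibody arrays again lay below both controls, but the lower control was close to them. Its log2 change was −0.49 ± 0.24 (95% interval −1.02 to 0.04), with an adjusted p of 0.632 by limma. The control arrays took opposite orders on the 2 probe sets: control replicate 1 was the higher one on M36453_at and the lower one on M32754cds_s_at.

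Leaving out arrays 1 at a time moved the probe sets differently. The change on M36453_at stayed between −1.08 (without control replicate 2) and −0.71 (without control replicate 1), and it was called when antibody replicate 1 was left out (−1.01 with an adjusted p of 0.00258 by limma), with adjusted p from 0.0584 to 0.592 when any of the other arrays was left out. Without antibody replicate 1, 151 of all 5244 tested probe sets were called (2.88%). The change on M32754cds_s_at ranged from −0.87 without control replicate 1 to −0.11 without control replicate 2, so its size depended on which control array was kept.

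**Figure D1:**
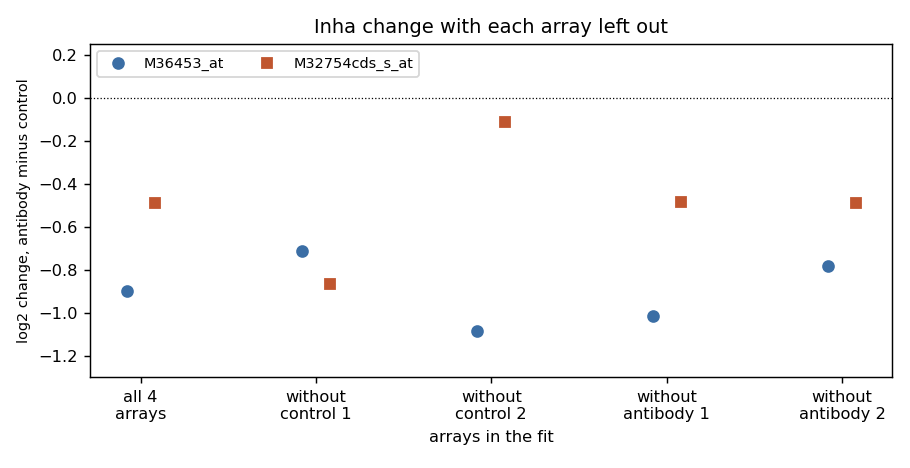
Log2 change of the Inha probe sets (antibody minus control, y axis) with all 4 arrays and with each array left out (x axis); circles are M36453_at and squares M32754cds_s_at. All points lie below 0, those of M36453_at between −1.08 and −0.71 and those of M32754cds_s_at between −0.87 and −0.11. The groups did not overlap on either probe set, so leaving out an array could not bring a point above 0.

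Neither beta subunit gave a call. Inhba, which encodes the beta A subunit of inhibin A and activin A (M37482_at), had intensities of 46.4 and 41.2 in the controls and 48.5 and 53.6 after the antibody. The antibody arrays were slightly above both controls, and the log2 change was 0.17 ± 0.19, with a 95% interval of −0.26 to 0.59 and an adjusted p of 0.878 by limma. That interval leaves room for a modest difference either way.

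Inhbb, which encodes the beta B subunit of inhibin B (M32757cds_at), read 31.7 and 11.9 in the controls and 5 and 10.6 after the antibody. Both antibody values were below both controls, although antibody replicate 2 and control replicate 2 were only a little apart. The mean of all arrays was under the level used for testing. Fitted with no filter on dim probe sets, its log2 change was −0.63 ± 0.28 (95% interval −1.28 to 0.03) with an adjusted p of 0.631 by limma. Whether the probe set was above background on any array cannot be read from these values.

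Fst, the activin-binding protein, was represented by 2 probe sets made from the same expressed sequence tag, so they are not independent. On rc_AA858520_g_at the intensities were 20.4 and 11 in the controls and 21.8 and 21.9 after the antibody. On rc_AA858520_at they were 9 and 5.8 in the controls and 7.7 and 9.4 after the antibody. The antibody arrays lay above the controls on the first, by a narrow margin over control replicate 1, and overlapped with them on the second. With no filter the log2 changes were 0.27 ± 0.22 and 0.07 ± 0.13, with adjusted p of 0.772 and 0.893 by limma.

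**Figure D2:**
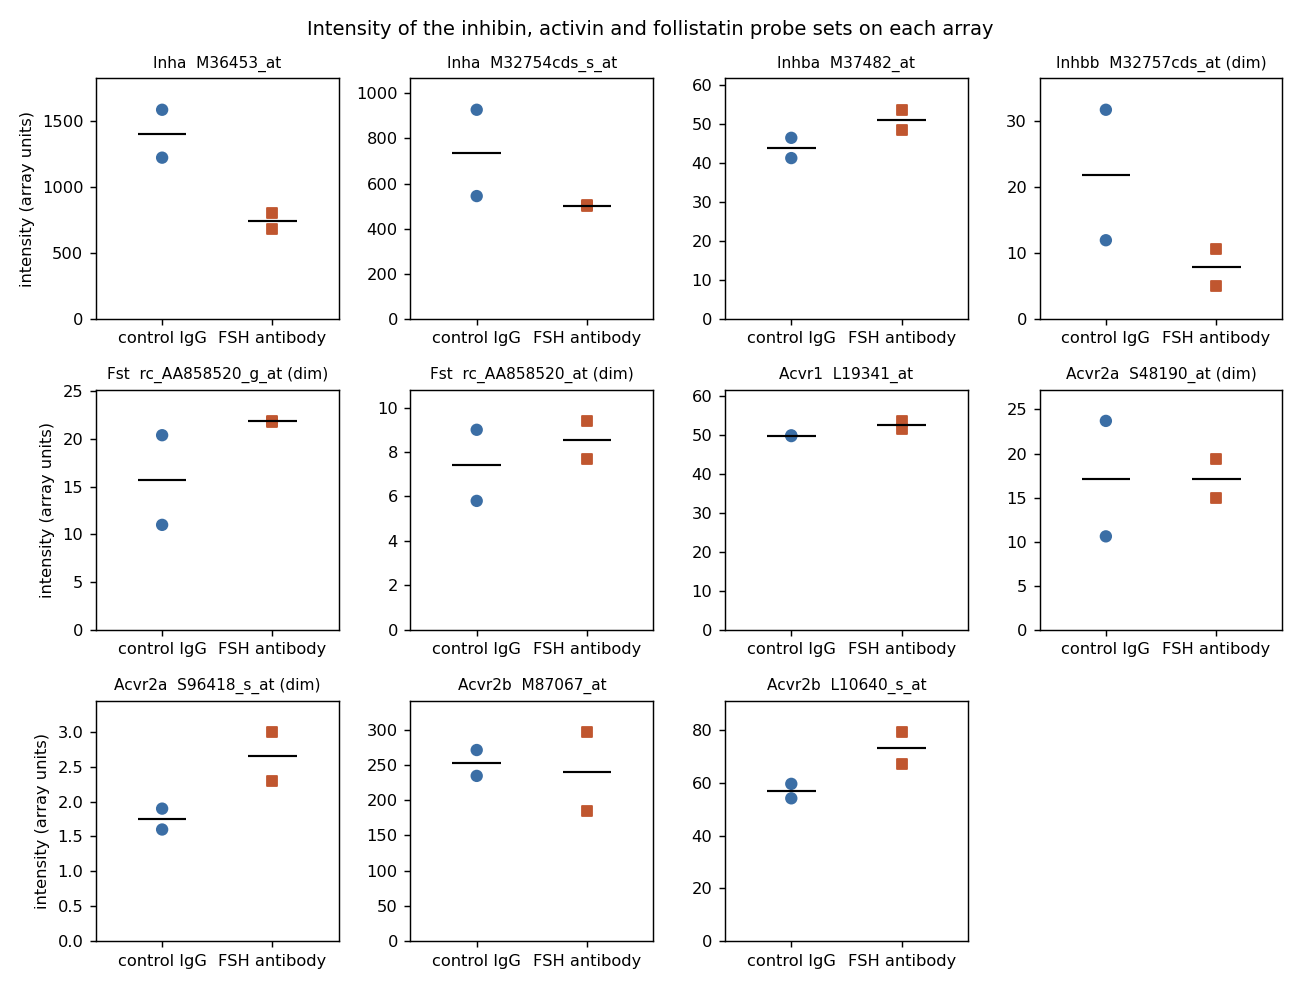
Intensity in array units (y axis, from 0, each panel with its own scale) of the 11 member probe sets for control IgG (circles) and FSH antibody (squares), 1 point per array with the group mean as a line; "dim" marks probe sets under the level used for testing. Inha M36453_at shows the antibody arrays at 804.3 and 682 below the controls at 1588.4 and 1224.2.

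Among the receptors, Acvr1, a type I receptor that also serves bone morphogenetic proteins and the anti-Müllerian hormone (L19341_at), was nearly level across the arrays. It read 49.9 and 49.7 in the controls and 53.6 and 51.4 after the antibody. The log2 change was 0.06 ± 0.18 (95% interval −0.35 to 0.47, adjusted p = 0.962 by limma). Its antibody arrays were above its controls, but the difference was small against the spread the model assigns to probe sets of this brightness.

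Acvr2a, the first type II activin receptor to be cloned, was dim on both probe sets. S48190_at gave 10.6 and 23.7 in the controls and 19.4 and 14.9 after the antibody, with overlapping groups and equal means of 17.2. S96418_s_at gave 1.9 and 1.6 in the controls and 2.3 and 3 after the antibody, values near the bottom of the scale. With no filter the log2 changes were 0.03 ± 0.24 and 0.07 ± 0.08.

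Acvr2b, the other type II receptor, gave changes of opposite sign on its 2 probe sets. M87067_at read 271.6 and 234.8 in the controls and 297.2 and 184.3 after the antibody, so the antibody arrays lay on either side of the controls. Its log2 change was −0.10 ± 0.23 (95% interval −0.61 to 0.41, adjusted p = 0.943 by limma), and it turned to 0.22 when antibody replicate 2 was left out. L10640_s_at read 59.7 and 54.2 in the controls and 79.4 and 67.1 after the antibody, with no overlap and a log2 change of 0.29 ± 0.18 (95% interval −0.12 to 0.70, adjusted p = 0.747 by limma).

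**Figure D3:**
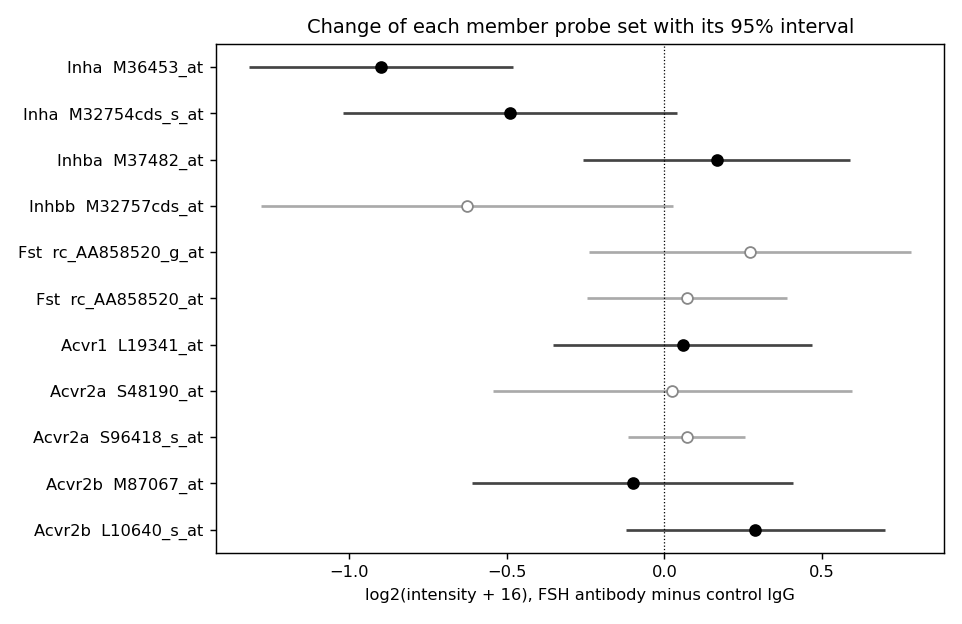
Log2 change of each member probe set (antibody minus control on the log2(intensity + 16) scale, x axis) with its 95% interval from limma; filled points were tested and open points come from the fit with no filter. The interval of Inha M36453_at, −1.32 to −0.48, lies below 0, and the intervals of the other 10 probe sets include 0.

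Counted over the members, 0 of 6 tested probe sets were called, against 14 of all 5244 tested (0.267%). At an unadjusted p under 0.05 there was 1 of 6 (Inha M36453_at), against 8.10% of all tested. The groups were separate with lower antibody values on 3 of the 11 member probe sets (both of Inha and that of Inhbb), against 12.2% of the 8740 probe sets that are not controls. They were separate with higher antibody values on 5 of the 11 (Inhba, Acvr1 and 1 probe set each of Fst, Acvr2a and Acvr2b), against 27.6%. The median log2 change was −0.02 over the 6 tested member probe sets and 0.03 over all tested.

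The genes around these members in the same signalling system were taken from a hand-written list of 46 ligands, receptors, SMADs, binding proteins and processing proteases. The array held 31 of them on 46 probe sets, of which 27 probe sets of 21 genes were tested. None was called by limma. At an unadjusted p under 0.05 there were 3 lower and 1 higher (14.8% of the 27, against 8.10% of all tested probe sets). Their median log2 change was −0.02, against 0.03 over all tested, with 12 higher and 15 lower.

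The lower ones at that level were Pcsk6, Smad3 and Smad9. Their antibody means, 18.2, 16.9 and 16.95, were below the intensity of about 23.6 that corresponds to the level used for testing. They reached that level only through their control arrays, so a lower direction was partly built into their selection. Pcsk6, a proprotein convertase that cleaves precursors of the TGF-beta family, read 46.7 and 42.8 in the controls and 21.1 and 15.3 after the antibody on rc_AI230712_at (log2 change −0.83 ± 0.21, adjusted p = 0.243 by limma). Its other probe set, D31854_s_at, was dim and its groups overlapped. Smad3, which carries the activin signal to the nucleus, read 39.1 and 42.2 in the controls and 21.3 and 12.5 after the antibody (−0.80 ± 0.23, adjusted p = 0.348). Smad9, a SMAD of the bone morphogenetic protein branch, read 52.9 and 35.1 in the controls and 9.9 and 24 after the antibody (−0.88 ± 0.27, adjusted p = 0.435). Antibody values were below control values on all arrays for these 3, and each was called in 1 of the fits with an array left out: Pcsk6 and Smad3 without antibody replicate 1 (adjusted p of 0.0242 and 0.0205 by limma) and Smad9 without antibody replicate 2 (0.00253). Those fits called 2.88% and 1.79% of all tested probe sets, against 0.267% with all arrays.

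The higher one was Amh, the anti-Müllerian hormone that immature Sertoli cells secrete and a relative of the inhibin subunits. It read 544.4 and 498.4 in the controls and 753.6 and 758.1 after the antibody (log2 change 0.52 ± 0.16, adjusted p = 0.437 by limma). Its groups were separate. Its receptor Amhr2 read 511.6 and 543.3 in the controls and 525.1 and 510.8 after the antibody, with overlapping groups and a change of −0.02 ± 0.16.

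Other parts of the activin pathway gave small differences. Acvr1b, the main type I receptor for activin, changed by 0.25 ± 0.21. Smad2, the partner of Smad3, gave −0.02, −0.02 and −0.18 on its 3 probe sets, and the common SMAD, Smad4, gave 0.36 ± 0.21. Tgfbr3, betaglycan, the co-receptor that lets inhibin compete for type II receptors, gave 0.20 and 0.10. None of these was called, and their adjusted p by limma ran from 0.713 for Smad4 to 0.988 for 1 of the Smad2 probe sets.

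A further list of 26 genes held the route from the FSH receptor to the subunit promoters: the receptor, cAMP signalling and transcription factors reported to act on inhibin genes. On the array were 23 of them, and 38 probe sets of 21 genes were tested. None was called by limma. At an unadjusted p under 0.05, 3 were higher and 1 lower (10.5% of the 38, against 8.10% of all tested probe sets). The median log2 change was 0.10, against 0.03 over all tested. Fshr, the FSH receptor, read 67.9 and 74.1 in the controls and 114 and 71.6 after the antibody on L02842_g_at, with overlapping groups and a change of 0.30 ± 0.22. Its dim probe set L02842_at read 3 and 3.2 in the controls and 5.5 and 4.9 after the antibody. Nr5a1, the nuclear receptor SF-1, read 76.4 and 80.3 in the controls and 84.2 and 85 after the antibody (0.09 ± 0.17), and Gata4 gave 0.26 and 0.14.

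Among the tested probe sets on that list, the smallest p-values belonged to immediate early genes. Jun, a component of AP-1, gave 0.60 ± 0.18 and 0.53 ± 0.23 on the 2 probe sets that had an unadjusted p under 0.05, with adjusted p of 0.435 and 0.605 by limma, and 0.48 and 0.24 on its others. Egr1, a zinc finger factor, gave 0.43 ± 0.18 on AF023087_s_at, where the groups were separate. Groups overlapped on the remaining Egr1 probe sets, with changes of 0.38, 0.23 and −0.08. Probe sets of Junb disagreed: −0.68 ± 0.20 on rc_AA891041_at, with 50.3 and 53.6 in the controls and 28.1 and 24.8 after the antibody, and 0.28 ± 0.18 on X54686cds_at.

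**Figure D4:**
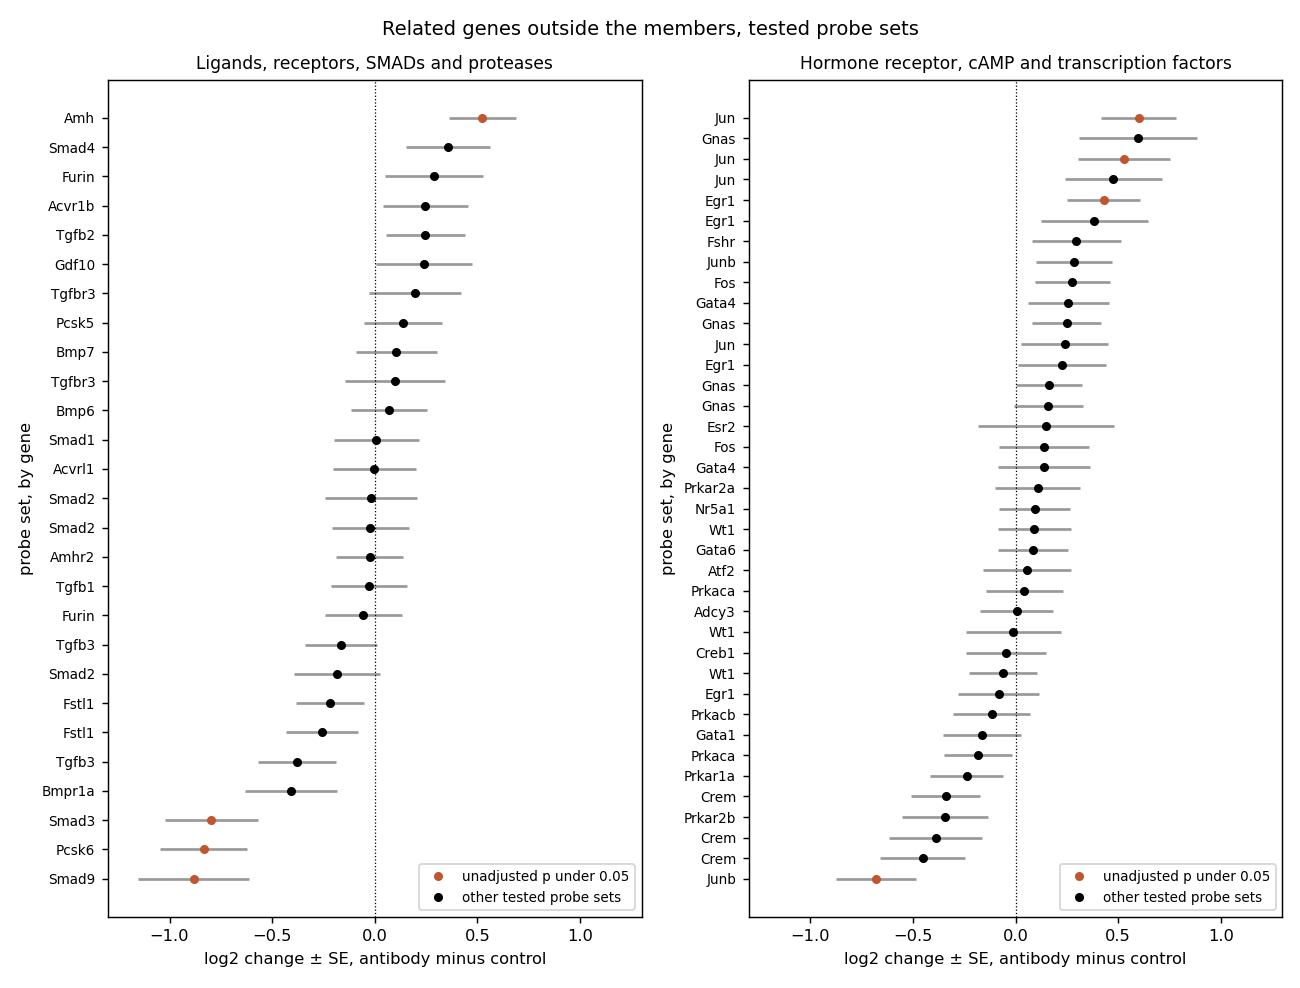
Log2 change ± SE (antibody minus control, x axis) of each tested probe set of the related genes (y axis, labelled by gene), with ligands, receptors, SMADs and proteases on the left (27 probe sets) and the FSH receptor, cAMP and transcription factor genes on the right (38 probe sets). Orange points had an unadjusted p under 0.05, which was so for 4 probe sets on each side; none was called after adjustment.

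Genes whose pattern over the 4 arrays was most like that of Inha M36453_at were found by the Euclidean distance between log2 values centred on each probe set's own mean. The 5 nearest were the cationic amino acid transporter Slc7a1 (distance 0.18), the glycosyltransferase Galnt6 (0.19), Pcsk6 (0.21), the iron transporter Slc11a2 (0.22) and the syntaxin Stx1a (0.23). Slc7a1 read 179.9 and 139.5 in the controls and 85 and 83.3 after the antibody. Galnt6 read 126.5 and 98 in the controls and 50.6 and 38.4 after the antibody. With 4 arrays such a ranking describes these arrays only.

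Markers of cell types were read beside the Inha result. Summed over the brightest probe set of each of 13 Sertoli markers, intensities were 13335 and 12876 in the controls and 12884 and 14072 after the antibody, so the groups overlapped. Clu and Aard made up 71.6% to 74.5% of these sums; the other markers summed to 3636 and 3497 in the controls and 3657 and 3589 after the antibody, which also overlapped. Of its 19 tested probe sets 9 had an unadjusted p under 0.05 (6 higher, 3 lower) and 1 was called, Testin (log2 change 1.56, adjusted p = 0.0153 by limma). Over all tested probe sets 8.10% had an unadjusted p under 0.05 and 0.267% were called. Germ cell markers (12 genes) summed to 1591 and 2576 in the controls and 1983 and 1343 after the antibody, also overlapping, with 0 of 12 tested probe sets at an unadjusted p under 0.05 or called by limma. Leydig markers (6 genes) summed to 2474 and 2501 in the controls and 1953 and 2118 after the antibody, with both antibody arrays lower and Star called (−1.49, adjusted p = 0.0423 by limma). Cyp17a1, with overlapping groups, made up 66.0% to 78.0% of these sums. Without it the sums were 743.5 and 850.1 in the controls and 591.9 and 465 after the antibody, again lower. Without both Cyp17a1 and Fdx1 they were 286.7 and 267.6 in the controls and 305.5 and 221.9 after the antibody, which overlapped. Leydig probe sets differed in both directions: of 10 tested, 4 were lower and 2 higher at an unadjusted p under 0.05, the higher ones being Cyp11a1 (0.52) and 1 probe set of Lhcgr (0.46), both with separate groups. The 3 smallest p-values among Sertoli probe sets were those of Testin, Serpina5 (−0.99) and Shbg (−0.66), and among Leydig probe sets those of both Star probe sets and Fdx1 (−0.93). For germ cells they were those of H2bc1 (−0.57), Adam2 (0.46) and Pdha2 (−0.43).

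In the remaining marker lists the groups overlapped for myoid, erythroid and epididymis markers. Both antibody arrays were higher for the macrophage and pituitary sums, but not with the largest gene of each left out. Peritubular myoid markers (7 genes) summed to 3274 and 3447 in the controls and 3752 and 2748 after the antibody, with Cald1 (−0.37), Myl9 (−0.30) and Cnn1 (0.33) at the smallest p. Erythroid markers (4 genes) summed to 2160 and 3663 in the controls and 1998 and 2287 after the antibody, with Alas2 called (−1.38) and Hbb and Hbb-b1 at −0.43 and −0.24. Macrophage markers (4 genes) summed to 191 and 178 in the controls and 210 and 242 after the antibody, both higher, with C1qb at −0.71, Lyz2 at 0.60 and Cd14 at 0.39. The other C1qb probe set, X71127_g_at, gave 0.06 with overlapping groups. Without Lyz2 the macrophage sums were 90.9 and 114.9 in the controls and 88.7 and 103.6 after the antibody, which overlapped. Without both Lyz2 and Cd14 they were 35.5 and 68.6 in the controls and 24.4 and 24.8 after the antibody, both lower. Epididymis markers (3 genes) summed to 379 and 433 and then 381 and 420, with Adam7 at 0.59 and Cst8 at −0.17 and −0.13. Pituitary markers (5 genes) summed to 167 and 157 and then 171 and 220, with Cga at 0.55 and Lhb at −0.19. The dim Lhb probe set U25802_at went the other way, with 3.8 and 15 in the controls and 19.7 and 24.6 after the antibody. Without Cga the pituitary sums were 102.2 and 97.5 in the controls and 91.1 and 100 after the antibody, which overlapped. None of the marker values was 0 on any array. The part of these cell types in the Inha difference was not tested.

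Some values were read beside the tissue named by the labels and the organ named in the extraction protocol. Which organ the RNA came from was not tested. The meiotic gene Sycp3 read between 574.2 and 922.3, Amh between 498.4 and 758.1, and Clu, from the Sertoli list, between 6440 and 7459. Ovary markers (4 genes) summed to 143 and 142 in the controls and 167 and 183 after the antibody. Of these, Zp3 read at most 4.7 and Cyp19a1 at most 10.2, both dim, while Zp1 and Zp2 read 37.5 to 103.8. The pituitary FSH subunit Fshb was dim, at most 17.1.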

How the data were processed

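The authors deposited 1 linear intensity for each probe set and array. How it was computed, background correction and scaling included, is not given in the sources used here. The trimmed mean (2% left off at each end) came to about 125 on each array, so the arrays had been brought to a common level before deposit. No detection calls were used. Array medians were 36.5 to 40.4. The platform annotation gave the symbols, and RefSeq (GRCr8) replaced old ones by Entrez identifier: 7018 probe sets had 1 symbol, 308 several and 1473 none.

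Values were analysed as log2(intensity + 16) with no further normalization. After leaving out 59 control probe sets, those at or above the 40th percentile of the mean log2 value were fitted in limma 3.58.1 (lmFit, then eBayes with a trend on intensity; R 4.3.3). Tests were two-sided and p-values were adjusted by Benjamini-Hochberg over all tested probe sets. Functions were tested on simulated data. Named genes were every member probe set, the 3 smallest p-values and any call of each list, Fshr, Amh and Smad3, and the 5 patterns nearest to Inha; other named genes were chosen after their values were seen. For markers of cell types, lists for Sertoli, germ, Leydig, myoid, macrophage, erythroid, ovary, epididymis and pituitary cells were read. The members and lists were chosen with earlier results of these data known. Alternatives were other normalizations, constants, filters and variance models, leaving out each array, and the replicate number as a block.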

Additional observations from a re-analysis of the deposited data

How the results depend on the processing

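Of the 6 tested member probe sets, 5 kept their direction under every other setting in which they were tested. The groups of these 5 did not overlap, so leaving out 1 array could not turn their direction. Other filters, other variance models and the replicate block return the same change as the main fit. Acvr2b M87067_at turned from −0.10 to 0.22 without antibody replicate 2 and ranged from −0.42 to 0.22 with 1 array left out. The Inha M36453_at change ran from −1.08 to −0.71 with 1 array left out. Replicate numbers carry no stated pairing, and the replicate 1 minus replicate 2 differences of the groups had a correlation of 0.002 across 5244 probe sets. With the replicate number as a block, Inha M36453_at was called (−0.90, adjusted p = 0.00865 by limma) and 39 probe sets were called in all, against 14 without it; the other 5 tested member probe sets stayed uncalled. Over its 13 alternatives the adjusted p of Inha M36453_at ranged from 0.00258 to 0.734. Calls over all probe sets were 0 with quantile normalization, 0 with no filter, 0 with no moderation and 4 with median centring (424, 702, 352 and 408 at an unadjusted p under 0.05), and 0 to 151 with 1 array left out (0 without either control array, 151 without antibody replicate 1 and 94 without antibody replicate 2). Called probe sets of related signalling genes numbered 0 to 2, and of the FSH and transcription factor genes 0 to 1, with 1 array left out. The median of the signalling genes, −0.02, turned to 0.0025 with no filter and ranged from −0.044 to 0.066 with 1 array left out (0.066 without antibody replicate 2). Except that filters and left-out arrays change what enters the fit, the cause was not tested. With 1 array left out, the lone array is assumed to vary like the other group. Signal over background cannot be given, so the dim Inhbb, Fst and Acvr2a values have unknown reliability.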

Other observations

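In a gene chosen only once its values had been seen, all 4 probe sets of Crem, the gene of the cAMP response element modulator and of its inducible repressor ICER, had both antibody arrays below both controls, as did 12.2% of the 8740 probe sets that are not controls. S66024_at and S66024_g_at were made from the same sequence, so they are not independent. On S66024_g_at the intensities were 149.8 and 139.9 in the controls and 114 and 108 after the antibody (log2 change −0.34 ± 0.17, adjusted p = 0.648 by limma). On U04835_at they were 33.8 and 39.9 in the controls and 22.4 and 22.7 after the antibody (−0.45 ± 0.21, adjusted p = 0.632). On Z15158mRNA_at they were 30 and 35.7 in the controls and 26.4 and 16.7 after the antibody (−0.39 ± 0.23, adjusted p = 0.714). The dim S66024_at read 13.9 and 19.1 in the controls and 2.4 and 3.3 after the antibody. With no filter its log2 change was −0.78 ± 0.14, with an adjusted p of 0.242 by limma. None was called.

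Also chosen after their values were seen, dim probe sets of Inhbe, the beta E subunit, and Nog, the antagonist noggin, read higher after the antibody. Both antibody arrays lay above both controls on them, as on 27.6% of the 8740 probe sets that are not controls. Inhbe read 9.1 and 11.2 in the controls and 24 and 30.5 after the antibody, and Nog on U31203_at read 18.5 and 10.7 in the controls and 29.9 and 39.4 after the antibody. Both were under the level used for testing. With no filter the log2 changes were 0.72 ± 0.19 for Inhbe and 0.73 ± 0.23 for Nog, with adjusted p of 0.372 and 0.523 by limma. The dim probe set of Gdf15, from the same list, went the other way. It read 16.4 and 12.3 in the controls and 6.3 and 4.8 after the antibody (−0.49 ± 0.14). Other Nog values (rc_AA859752_at) were at most 3.2.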
